A study of Mus musculus with 6 samples.

Results

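The 34 genes described here encode enzymes that make serine, move single carbon units on folate, make purine and pyrimidine nucleotides, recycle bases, or make asparagine. They were chosen by name as members of these pathways, with earlier results of these data known. They are 34 of the 46963 genes in the deposited count table. Of these, 33 were tested among 14600 genes that reached 10 counts in 2 or more libraries, and Gldc did not reach that. All of them were followed in 6 RNA libraries of mouse splenic B cells, from resting to lipopolysaccharide (LPS)-stimulated cells and across 3 genotypes.

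The study asked how a pair of enhancers of the immunoglobulin heavy chain locus, Eμ and the 3′ regulatory region (3′RR), depend on one another. Splenic B cells were depleted of CD43-positive cells and their total RNA, after a depletion of ribosomal RNA, was sequenced on the strand of origin. The mice were wt, Eμ-deficient (named EμMAR-deficient in the methods) or 3′RR-deficient, males and females 8 to 12 weeks old, all of a shared inbred background according to the methods. Each genotype has 1 resting library (no LPS) and 1 library of cells stimulated for 2 days with 5 µg/ml LPS, a component of bacterial envelopes to which B cells respond by dividing. According to the labels each library pools 2 mice. Neither enhancer is in the count table, so that the deletions cannot be read from it. No group has a replicate library.

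Some descriptions differ between the labels and the methods. The sample labels give 5 µg/ml LPS, as the methods do, whereas the extraction protocol in the labels gives 5 mg/ml. Resting cells were cultured for 2 days according to the labels and taken before stimulation according to the methods. The methods mention 4 mice and 2 pools per genotype, and a figure legend 3 mice and 2 experiments. RNA was extracted with a Trizol-type reagent according to the labels and with a miRNeasy kit according to the methods. The 2 libraries of a genotype may thus share mice.

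The genes received 16094475, 13406257 and 20780706 counts in the resting wt, Eμ-deficient and 3′RR-deficient libraries, and 21998587, 10936243 and 9111974 counts in the LPS libraries of the same genotypes. Levels are in CPM, where each count is divided by its library's TMM-adjusted size in edgeR and brought to a common total. Sets of 3 values below follow the order wt, Eμ-deficient, 3′RR-deficient. Where a gene has 0 counts it may be present at up to 3 counts, which is 0.143 to 0.337 CPM depending on the library. The 34 members together took 14967, 9586 and 16795 counts at rest and 49936, 21058 and 26459 counts with LPS. Their summed level was 823, 725 and 816 CPM at rest and 2387, 1972 and 2972 CPM with LPS, so that each LPS library was above each resting library.

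Abundant non-coding RNAs, among them remaining ribosomal RNA, took uneven shares of the gene counts. Rn7sk had 8.74, 8.33 and 12.2% at rest and 2.15, 5.82 and 5.90% with LPS, so that each LPS library was below each resting library and the wt LPS library was the lowest. The mitochondrial ribosomal RNA mt-Rnr2 had 5.84, 11.5 and 6.88% at rest and 11.4, 7.28 and 2.397% with LPS. It was highest in the Eμ-deficient resting and wt LPS libraries and lowest in the 3′RR-deficient LPS library. Rn18s-rs5 stayed between 16.4% and 19.5%. With such RNAs left out of the TMM library sizes, 28 members were called higher with LPS and 1 lower by edgeR's quasi-likelihood test with Benjamini-Hochberg adjustment, as with them.

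The B-cell identity of the libraries was read from 7 marker genes, among them Cd79a, Cd79b and Pax5. All 7 had counts in the 6 libraries, and their summed level was 2908, 2166 and 3234 CPM at rest and 1975, 1747 and 2090.1 CPM with LPS. Per kb of exon, Cd79a was the most abundant of them. Cd79a had 569.6, 271 and 585 CPM at rest and 252, 237 and 349 CPM with LPS. Markers of other cells are given after the results of the members.

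Serine made from a glycolytic intermediate donates a carbon unit to tetrahydrofolate, and folate-bound units of the mitochondria and cytosol supply the carbons of the purine ring, of thymidylate and of methionine. Purines and pyrimidines are assembled on a phosphorylated ribose, in pathways whose enzymes often carry several activities on a single chain, while salvage enzymes rebuild nucleotides from free bases. Lymphocytes are known for raising these pathways when they enter division, and drugs that block inosine monophosphate dehydrogenase, dihydroorotate dehydrogenase or folate metabolism are used to restrain them.

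The first comparison asks how the members differ between LPS and resting B cells over the 3 genotypes. An additive model with genotype and culture state was fitted to the 6 libraries, which leaves 2 residual degrees of freedom. Its error term measures how far the genotypes depart from a common LPS response and not how mice differ. The test also drew on the spread of other genes, with 7.06 prior degrees of freedom. Each SE given is the size of the log2 fold change divided by the square root of the test's F statistic. A gene was called at an adjusted p at or under 0.05 by edgeR's quasi-likelihood test with Benjamini-Hochberg adjustment over 14600 genes. With LPS, 28 of the 33 tested members were called higher, where 19.7% of all tested genes were. Called lower was 1 member, Ctps2, where 21.1% of all tested genes were. The share called higher was thus above that of all genes and the share called lower below it. Since the members were chosen with earlier results of these data known, this contrast is a description only. The median log2 fold change was 1.69 over the members and -0.07 over all tested genes. The 4 tested members without a call were Mthfd2l, Mtr, Prps2 and Impdh1.

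Without any model, 29 members had all 3 LPS libraries above all 3 resting libraries, where 25% of tested genes did. The member not called among these was Prps2. In 1 member, Ctps2, all 3 LPS libraries lay below all 3 resting libraries, where 27.3% of tested genes did. Fewer cells of a type and less RNA per cell cannot be told apart in these bulk libraries. With library sizes taken from the added spike-in RNAs, 22 members were called higher, where 9.96% of all tested genes were, and the calls of Mthfd1l, Mat2a, Prps1, Gmps, Dhodh and Nme2 were lost. The same 1 member was called lower. That scaling moved the median of all tested genes by -0.213 in log2, and the members' median was then 1.50.

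The calls of 4 members also depended on single libraries. By edgeR's quasi-likelihood test with Benjamini-Hochberg adjustment, Mat2a had an adjusted p of 0.0237, and of 0.128, 0.107, 0.0604 and 0.0555 without the Eμ-deficient resting, Eμ-deficient LPS, 3′RR-deficient resting and 3′RR-deficient LPS library, respectively. For Dhodh the adjusted p of edgeR's quasi-likelihood test with Benjamini-Hochberg adjustment was 0.0349 with all libraries and 0.176, 0.161, 0.187 and 0.177 without the same libraries. Mthfd1l had 0.0870 without the Eμ-deficient resting and 0.0699 without the Eμ-deficient LPS library, by the same adjusted p of edgeR's quasi-likelihood test with Benjamini-Hochberg adjustment. Nme2, with few counts, was no longer called without any 1 of the wt or Eμ-deficient libraries, where its adjusted p in edgeR's quasi-likelihood test with Benjamini-Hochberg adjustment lay between 0.0730 and 0.103. Over all fits with edgeR's quasi-likelihood test and Benjamini-Hochberg adjustment, including other scalings and filters, the adjusted p ran from 0.00973 to 0.289 for Mat2a, from 0.0146 to 0.359 for Dhodh, from 4.37e-05 to 0.155 for Mthfd1l and from 0.00827 to 0.103 for Nme2. The other 25 calls were kept without each library in turn.

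**Figure D1:**
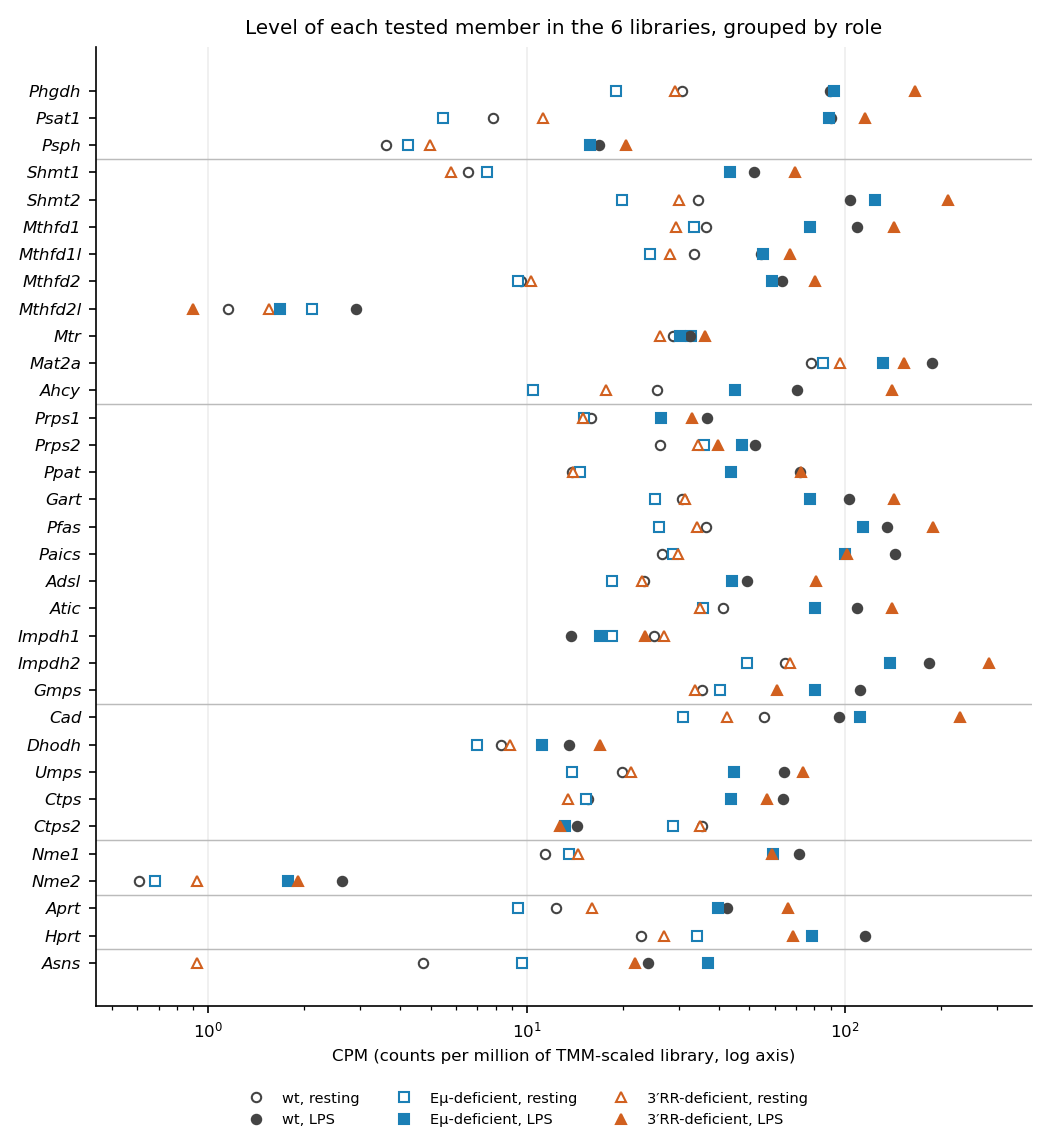
Level of each of the 33 tested members in each of the 6 libraries, in CPM on a log axis, with open points for resting and filled points for LPS libraries and a colour and shape for each genotype. In 29 members the filled points lie right of all open points, and in Ctps2 they lie left of them.

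**Figure D2:**
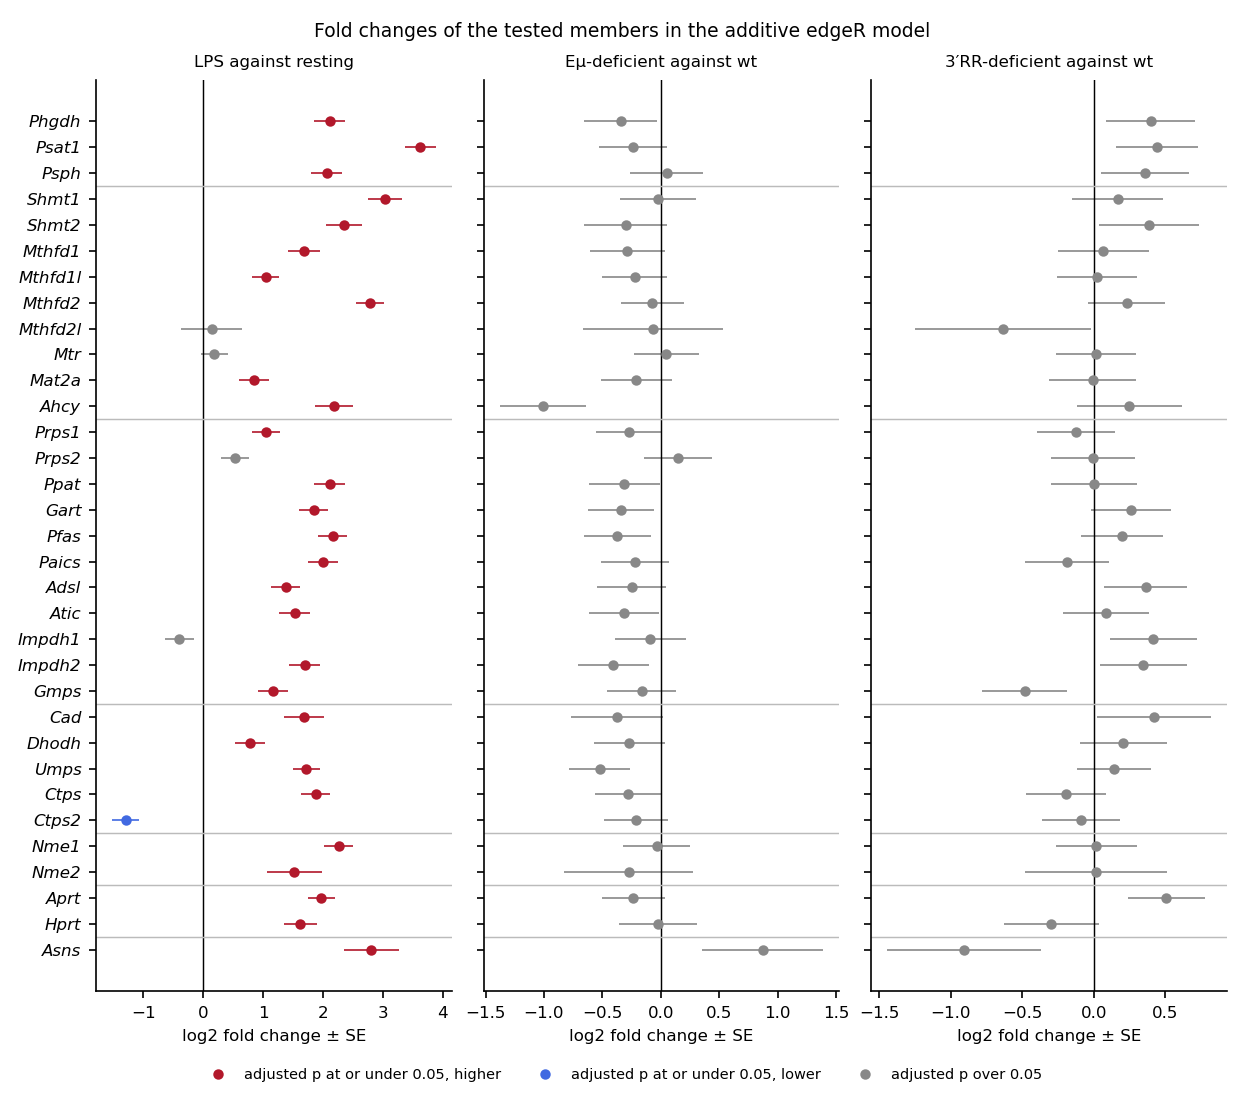
Log2 fold change with its SE, derived from the F statistic, for each of the 33 tested members (vertical axis, grouped by role). Panels show LPS against resting, Eμ-deficient against wt and 3′RR-deficient against wt. In the LPS panel 28 members are marked as called higher and 1 as called lower, and in the genotype panels 0 are marked.

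As most members moved together with LPS, their promoters were examined for 3 short motifs on both strands, with no mismatch allowed: the E-box CACGTG, the CCAAT box CCAAT, and TGATGNAAN, the core of an amino acid response element. CACGTG reads the same on both strands, and no motif contains another. The windows run from 250 bases before to 50 bases after a transcription start and come from RefSeq (GRCm38.p6). Of the 34 members, 32 had at least 1 window, 39 windows in all, and Dhodh and Pfas had no entry. An E-box was in 5 of the 39 member windows and in 7.15% of all 32851 windows. The members with one were Paics, Atic, Impdh2 and Nme1. A CCAAT box was in 16 member windows, of 16 different members, and in 37.4% of all windows. TGATGNAAN was in 2 member windows, those of Prps1 and Asns, and in 3.95% of all windows. A match describes these letters only.

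Serine synthesis has 3 enzymes. Phgdh encodes the dehydrogenase that opens the pathway and had 30.7, 19.1 and 29.2 CPM at rest and 89.8, 92.0 and 165 CPM with LPS. Psat1 encodes the transaminase of the second step (ENSMUSG00000024640, chr19:15904678-15947337) and had 7.87, 5.45 and 11.3 CPM at rest and 89.9, 89.2 and 115 CPM with LPS. Psph encodes the phosphatase that releases serine, with 3.63, 4.24 and 4.96 CPM in the resting libraries against 16.9, 15.8 and 20.6 CPM in the LPS libraries. In each of the 3 genes every LPS library was above every resting library, and the 3′RR-deficient LPS library was the highest of the 6. By edgeR's quasi-likelihood test with Benjamini-Hochberg adjustment, the log2 fold change was 2.11 (SE 0.27, adjusted p 0.000461) for Phgdh, 3.62 (SE 0.26, adjusted p 6.65e-05) for Psat1 and 2.06 (SE 0.26, adjusted p 0.000471) for Psph. The fitted change of Psat1 is a 12.3-fold rise, the highest of the 33 tested members with all libraries.

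The promoter of Psat1 is shown because this member had the highest fitted rise. The 250 bases before the start at chr19:15925060-15925309, minus strand, GRCm38.p6, hold 2 CCAAT boxes in capitals, beginning at bases -36 and -6. A further match begins at base 24 of the transcript, and the other of the 2 Psat1 windows has none.
Psat1: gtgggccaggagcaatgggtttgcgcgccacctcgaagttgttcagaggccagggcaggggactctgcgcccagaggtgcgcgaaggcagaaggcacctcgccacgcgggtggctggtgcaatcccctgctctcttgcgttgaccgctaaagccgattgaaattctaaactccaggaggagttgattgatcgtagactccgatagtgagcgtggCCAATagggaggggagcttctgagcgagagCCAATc

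Of the folate and methionine cycle members, Shmt1 encodes the cytosolic and Shmt2 the mitochondrial enzyme that moves a carbon from serine to folate. Shmt1 had 6.55, 7.49 and 5.78 CPM at rest and 51.5, 43.6 and 69.6 CPM with LPS. Shmt2 had 34.5, 19.9 and 30.0 CPM at rest and 104, 124 and 209.6 CPM with LPS. In both genes every LPS library was above every resting library, and again the 3′RR-deficient LPS library was the highest. Their log2 fold changes were 3.04 (SE 0.28, adjusted p 0.000125) for Shmt1 and 2.34 (SE 0.30, adjusted p 0.000487) for Shmt2 by edgeR's quasi-likelihood test with Benjamini-Hochberg adjustment.

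Mthfd2 encodes the mitochondrial dehydrogenase and cyclohydrolase that is abundant in dividing cells, and had 9.63, 9.38 and 10.3 CPM at rest and 63.3, 58.9 and 80.5 CPM with LPS. Mthfd2l encodes its close relative and had 1.16, 2.12 and 1.56 CPM at rest and 2.92, 1.69 and 0.899 CPM with LPS, from 8 to 61 counts. The libraries of Mthfd2 fell into separate ranges by state, with little spread between genotypes within each. Those of Mthfd2l overlapped, with the highest value in the wt LPS and the lowest in the 3′RR-deficient LPS library. Mthfd1, the cytosolic trifunctional enzyme, had 36.4, 33.6 and 29.4 CPM at rest and 109, 77.6 and 142 CPM with LPS. Mthfd1l, the mitochondrial formate-releasing enzyme, had 33.6, 24.4 and 28.1 CPM at rest and 54.3, 55.2 and 67.3 CPM with LPS. Every LPS library of these 2 genes was above every resting library. The log2 fold change in edgeR's quasi-likelihood test with Benjamini-Hochberg adjustment was 2.78 (SE 0.23, adjusted p 9.58e-05) for Mthfd2, 1.69 (SE 0.27, adjusted p 0.00144) for Mthfd1 and 1.04 (SE 0.23, adjusted p 0.00694) for Mthfd1l. That of Mthfd2l was 0.14 (SE 0.51, adjusted p 0.840) in edgeR's quasi-likelihood test with Benjamini-Hochberg adjustment and was not called. Its sign depended on the library left out, at -0.52 without either wt library and 0.52 without the 3′RR-deficient resting library.

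The promoter of Mthfd2 is shown for its 3 CCAAT boxes, which begin at bases -96, -47 and -22, the middle one as ATTGG on the other strand. The 248 bases are at chr6:83317607-83317854, minus strand, GRCm38.p6, and end where the annotated exon begins.
Mthfd2: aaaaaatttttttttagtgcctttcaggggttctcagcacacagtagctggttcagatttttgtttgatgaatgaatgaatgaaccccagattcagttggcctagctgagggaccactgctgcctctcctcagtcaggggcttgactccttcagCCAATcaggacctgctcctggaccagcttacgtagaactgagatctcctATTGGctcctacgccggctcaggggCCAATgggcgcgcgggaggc

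In the methionine cycle, Mat2a makes the methyl donor S-adenosylmethionine and had 78.0, 85.0 and 96.4 CPM at rest and 187, 131 and 152 CPM with LPS. Ahcy, which splits the S-adenosylhomocysteine left after methyl transfer, had 25.6, 10.4 and 17.7 CPM at rest and 70.6, 45.1 and 140.0 CPM with LPS. In both genes the LPS libraries were above the resting ones. The Eμ-deficient library was the lowest of its state for Ahcy in both states. In edgeR's quasi-likelihood test with Benjamini-Hochberg adjustment, the log2 fold change was 0.85 (SE 0.25, adjusted p 0.0237) for Mat2a and 2.18 (SE 0.31, adjusted p 0.000868) for Ahcy. Mtr, the methionine synthase, stayed between 26.2 and 36.3 CPM, and its states overlapped. Its log2 fold change was 0.18 (SE 0.23, adjusted p 0.544) by edgeR's quasi-likelihood test with Benjamini-Hochberg adjustment and was not called. Gldc, a part of the glycine cleavage system, had 1 count in each 3′RR-deficient library and 0 counts in the other 4, so that it could not be compared.

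Phosphoribosyl pyrophosphate, the activated ribose of nucleotide synthesis, is made by Prps1 and Prps2. Prps1 had 16.0, 15.1 and 15.0 CPM at rest and 36.7, 26.4 and 32.9 CPM with LPS. Prps2 had 26.3, 36.1 and 34.5 CPM at rest and 51.9, 47.5 and 39.8 CPM with LPS. The states did not overlap in either gene, but for Prps2 the lowest LPS value and the highest resting value lay close together. Log2 fold changes by edgeR's quasi-likelihood test with Benjamini-Hochberg adjustment were 1.05 (SE 0.23, adjusted p 0.00637) for Prps1 and 0.53 (SE 0.24, adjusted p 0.108) for Prps2, which was not called. With the trend of each library on transcript GC content removed, Prps2 was called at a log2 fold change of 0.39 and an adjusted p of 0.0498, where the other fits ranged from 0.0778 to 0.626, in edgeR's quasi-likelihood test with Benjamini-Hochberg adjustment.

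Ppat, the amidotransferase that commits ribose to the purine ring, had 13.9, 14.8 and 13.9 CPM at rest and 72.3, 43.9 and 72.5 CPM with LPS. Gart, with 3 activities of the pathway on a single chain, had 30.8, 25.3 and 31.4 CPM at rest and 103, 77.4 and 142 CPM with LPS. Pfas, the next synthase, had 36.5, 26.0 and 34.2 CPM at rest and 135, 114 and 189 CPM with LPS. In these 3 genes the LPS libraries were well separated from the resting ones, and the Eμ-deficient library was the lowest LPS library. Paics, a bifunctional carboxylase and synthetase, had 26.5, 28.8 and 29.8 CPM at rest and 144, 99.9 and 101 CPM with LPS. Adsl, the lyase that acts both in this pathway and in making AMP, had 23.4, 18.5 and 23.0 CPM at rest and 49.0, 44.0 and 81.1 CPM with LPS. Atic, which closes the ring to inosine monophosphate, had 41.3, 35.6 and 35.0 CPM at rest and 109, 80.1 and 140.3 CPM with LPS. The wt library was the highest LPS library for Paics, and the 3′RR-deficient library for Adsl and Atic.

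By edgeR's quasi-likelihood test with Benjamini-Hochberg adjustment, the log2 fold change was 2.11 (SE 0.26, adjusted p 0.000398) for Ppat, 1.84 (SE 0.24, adjusted p 0.000497) for Gart and 2.16 (SE 0.24, adjusted p 0.000282) for Pfas. For the later steps edgeR's quasi-likelihood test with Benjamini-Hochberg adjustment gave 2.00 (SE 0.25, adjusted p 0.000436) for Paics, 1.38 (SE 0.24, adjusted p 0.00232) for Adsl and 1.52 (SE 0.25, adjusted p 0.00172) for Atic. The 6 enzymes that build the ring thus all passed the test in the same direction, Adsl with the lowest fold change of the 6. Ppat and Paics are neighbours that start from opposite strands, and their RefSeq transcribed strands share 277 bases at the starts. Their counting was strand-specific according to the methods. How well it kept reads of one from the other was not checked.

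From inosine monophosphate, Impdh1 and Impdh2 lead toward guanine nucleotides and Gmps completes GMP. Impdh1 had 25.1, 18.5 and 27.0 CPM at rest and 13.8, 17.0 and 23.5 CPM with LPS. Impdh2 had 64.9, 49.1 and 66.9 CPM at rest and 183, 138 and 283 CPM with LPS. Gmps had 35.6, 40.3 and 33.7 CPM at rest and 111, 80.5 and 61.2 CPM with LPS. The LPS values of Impdh2 and Gmps were all above the resting values, with the 3′RR-deficient library highest for Impdh2 and lowest for Gmps. Those of Impdh1 overlapped the resting values. The log2 fold change in edgeR's quasi-likelihood test with Benjamini-Hochberg adjustment was 1.69 (SE 0.25, adjusted p 0.00106) for Impdh2, 1.17 (SE 0.25, adjusted p 0.00552) for Gmps and -0.40 (SE 0.25, adjusted p 0.227) for Impdh1, which was not called.

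The promoters of Gart and Prps1 are shown as purine members with a motif match. That of Gart lies at chr16:91646973-91647222, minus strand, and that of Prps1 at chrX:140456353-140456602, plus strand, both in GRCm38.p6. Capitals mark a CCAAT box that begins at base -33 in Gart and at base -61 in Prps1, and TGATGTAAA, which begins at base -170 in Prps1.
Gart: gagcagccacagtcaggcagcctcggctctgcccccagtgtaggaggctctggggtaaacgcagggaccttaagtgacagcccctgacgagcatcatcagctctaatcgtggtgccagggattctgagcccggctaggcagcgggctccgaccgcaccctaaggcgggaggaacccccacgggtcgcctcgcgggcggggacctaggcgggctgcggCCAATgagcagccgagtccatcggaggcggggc
Prps1: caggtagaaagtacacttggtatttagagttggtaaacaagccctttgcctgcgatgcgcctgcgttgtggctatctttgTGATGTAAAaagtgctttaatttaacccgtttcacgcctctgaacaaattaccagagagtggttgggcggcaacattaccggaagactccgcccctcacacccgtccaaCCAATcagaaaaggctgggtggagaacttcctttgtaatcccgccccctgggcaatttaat

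The E-boxes of the 4 members that had one are shown with 10 bases on either side. They begin at base -7 in Atic (chr1:71557139-71557164, plus strand), at base -110 in Impdh2 (chr9:108560316-108560341, plus strand) and at base -203 in Paics (chr5:76951089-76951114, plus strand). Nme1, a kinase described further on, has one in each of its 2 windows, at base -29 (chr11:93968039-93968064, minus strand) and at base -18 (chr11:93968275-93968300, minus strand), printed in that order.
Atic: acctcggggtCACGTGgggtcgacac
Impdh2: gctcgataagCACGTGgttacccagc
Paics: cctcggaaagCACGTGgagggacctg
Nme1: cttgatacgcCACGTGggctcgcctt
Nme1: tgcggggaacCACGTGaggccgggga

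In pyrimidine synthesis, Cad carries the first 3 activities on a single chain and had 55.7, 31.0 and 42.6 CPM at rest and 95.3, 111 and 229 CPM with LPS. Dhodh, the mitochondrial dehydrogenase of the next step, had 8.31, 6.96 and 8.85 CPM at rest and 13.6, 11.1 and 17.0 CPM with LPS. Umps, which completes UMP, had 20.0, 13.9 and 21.3 CPM at rest and 64.4, 44.8 and 73.6 CPM with LPS. The LPS libraries were above the resting libraries in each of these genes, with the widest spread between LPS libraries for Cad. In edgeR's quasi-likelihood test with Benjamini-Hochberg adjustment, the log2 fold change was 1.68 (SE 0.33, adjusted p 0.00402) for Cad, 0.78 (SE 0.25, adjusted p 0.0349) for Dhodh and 1.72 (SE 0.22, adjusted p 0.000472) for Umps.

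Ctps and Ctps2 encode the enzymes that turn UTP into CTP, and they moved in opposite directions. Ctps (ENSMUSG00000028633, chr4:120539868-120570276) had 15.6, 15.4 and 13.5 CPM at rest and 63.9, 43.8 and 56.6 CPM with LPS. Ctps2 (ENSMUSG00000031360, chrX:162901238-163032508) had 35.4, 28.8 and 35.1 CPM at rest and 14.4, 13.2 and 12.7 CPM with LPS. Each LPS library was above each resting library for Ctps and below each for Ctps2. Log2 fold changes by edgeR's quasi-likelihood test with Benjamini-Hochberg adjustment were 1.88 (SE 0.24, adjusted p 0.000460) for Ctps and -1.29 (SE 0.23, adjusted p 0.00230) for Ctps2. Ctps2 was called lower with each scaling, each filter, DESeq2, and each library left out.

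The promoters of this pair are shown since its members moved apart. The Ctps bases lie at chr4:120570277-120570526, minus strand, and hold none of the 3 motifs, nor does the other window of Ctps. Those of Ctps2 lie at chrX:162901921-162902170, plus strand, and hold a CCAAT box in capitals that begins at base -68. They are shown as the 1 of 3 Ctps2 windows with a match. Both are in GRCm38.p6.
Ctps: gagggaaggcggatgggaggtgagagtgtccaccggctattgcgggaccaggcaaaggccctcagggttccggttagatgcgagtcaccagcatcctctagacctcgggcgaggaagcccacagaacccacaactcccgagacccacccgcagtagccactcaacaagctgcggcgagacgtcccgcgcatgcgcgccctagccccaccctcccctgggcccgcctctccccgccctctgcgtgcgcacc
Ctps2: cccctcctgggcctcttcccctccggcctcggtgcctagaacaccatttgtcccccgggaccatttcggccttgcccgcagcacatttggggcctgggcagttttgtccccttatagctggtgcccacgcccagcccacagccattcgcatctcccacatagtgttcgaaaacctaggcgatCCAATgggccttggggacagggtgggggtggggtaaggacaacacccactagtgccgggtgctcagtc

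Nme1 and Nme2 encode nucleoside diphosphate kinases, which pass phosphates between nucleotides. Nme1 had 11.4, 13.5 and 14.5 CPM at rest and 71.4, 59.1 and 58.9 CPM with LPS. Nme2 had 0.605, 0.681 and 0.923 CPM at rest and 2.63, 1.78 and 1.91 CPM with LPS, from 9 to 55 counts. Both had each LPS library above each resting library. By edgeR's quasi-likelihood test with Benjamini-Hochberg adjustment, the log2 fold change was 2.26 (SE 0.24, adjusted p 0.000225) for Nme1 and 1.52 (SE 0.46, adjusted p 0.0263) for Nme2. Their counts are uncertain, since Gm20390, a readthrough gene of the same strand, shares 12.5% of the exon bases of Nme1 and 48.9% of those of Nme2.

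Salvage of free bases was read from Aprt, which acts on adenine, and Hprt, which acts on hypoxanthine and guanine. Aprt had 12.3, 9.38 and 16.0 CPM at rest and 42.4, 40.0 and 65.9 CPM with LPS. Hprt had 22.9, 34.1 and 27.0 CPM at rest and 115, 78.6 and 68.4 CPM with LPS. Both had each LPS library above each resting library, and for Hprt the wt library was the highest with LPS and the lowest at rest. The log2 fold change in edgeR's quasi-likelihood test with Benjamini-Hochberg adjustment was 1.97 (SE 0.23, adjusted p 0.000311) for Aprt and 1.62 (SE 0.28, adjusted p 0.00211) for Hprt.

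Asns encodes asparagine synthetase, a known target of the amino acid stress response, and had 4.73, 9.69 and 0.923 CPM at rest and 23.9, 37.2 and 21.9 CPM with LPS (ENSMUSG00000029752, chr6:7675169-7693254). The 3′RR-deficient resting library, with 19 counts, was the lowest of the 6, and the Eμ-deficient library was the highest of either state. In edgeR's quasi-likelihood test with Benjamini-Hochberg adjustment, the log2 fold change was 2.80 (SE 0.46, adjusted p 0.00163), with the widest standard error among the members called higher. The log2 fold change of Asns was 2.12 without the 3′RR-deficient resting library and 3.36 without the Eμ-deficient LPS library. Its match to TGATGNAAN, shown with 8 bases on either side, begins at base -23 (chr6:7693216-7693240, minus strand, GRCm38.p6).
Asns: cagccacaTGATGAAACttcccgca

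Levels of different members were compared only per kb of exon. Hprt ranked first and Impdh2 second of the 34 members by mean CPM per kb in both states. Hprt had a mean of 21.7 CPM per kb at rest and 67.8 CPM per kb with LPS. Impdh2 had 19.6 and 65.5 CPM per kb, so that the first ranks lay closer together than the libraries of either gene. Psat1 went from rank 27 at rest to rank 10 with LPS, at a mean of 1.93 and 23.0 CPM per kb. Ctps2 went from rank 12 to rank 30, at 7.01 and 2.85 CPM per kb. Mthfd2l was the lowest tested member in both states, at 0.242 and 0.276 CPM per kb.

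Isozyme pairs were compared by the share of the first gene in the pair's summed CPM per kb. Ctps took 38.5, 43.2 and 35.3% at rest and 86.3, 82.5 and 86.4% with LPS of its pair with Ctps2. Ctps2 was thus the more abundant of the pair in every resting library and Ctps in every LPS library. Impdh2 took 73.5, 74.0 and 72.6% at rest and 93.4, 89.7 and 92.8% with LPS of its pair with Impdh1, and the states did not overlap. The mitochondrial Mthfd2 took 94.1, 89.4 and 92.7% at rest and 97.6, 98.5 and 99.4% with LPS of its pair with Mthfd2l. Mthfd1 took 52.0, 57.9 and 51.0% at rest and 66.7, 58.4 and 67.8% with LPS of its pair with Mthfd1l. Its share in the Eμ-deficient LPS library lay just above that of the resting library of the same genotype. The share of Nme1 in its pair with Nme2 was 86.9, 87.5 and 84.7% at rest and 90.5, 92.1 and 91.5% with LPS, again without overlap. This share is uncertain, since Gm20390 shares 12.5% of the exon bases of Nme1 and 48.9% of those of Nme2. Nme2 also had only 9 to 55 counts.

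In 2 pairs the states overlapped. Cytosolic Shmt1 took 13.2, 23.2 and 13.4% at rest and 28.5, 22.0 and 21.0% with LPS of its pair with mitochondrial Shmt2. The Eμ-deficient share was higher at rest than with LPS, and the wt and 3′RR-deficient shares were lower at rest. Prps1 took 54.1, 44.9 and 45.8% at rest and 57.9, 51.9 and 61.7% with LPS of its pair with Prps2, and within each genotype the LPS share was the higher one. These shares have no test.

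**Figure D3:**
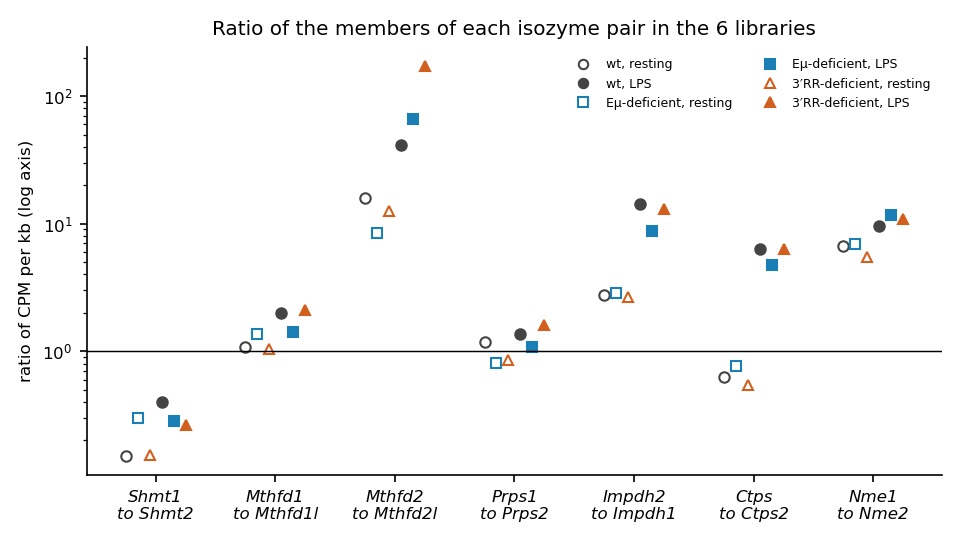
Ratio of CPM per kb of exon between the members of 7 isozyme pairs, on a log axis, in each of the 6 libraries, with open points for resting and filled points for LPS libraries. The ratio of Ctps to Ctps2 crosses 1 from resting to LPS libraries in every genotype, and that of Shmt1 to Shmt2 overlaps between states.

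Within a genotype, the LPS library was compared with the resting library as a log2 ratio of CPM with an exact Clopper-Pearson 95% interval. Such a ratio compares a pair of libraries, has no replicate check, and its interval covers counting error only. In wt the median ratio over the 33 tested members was 1.59, with 31 above 0. In Eμ-deficient cells it was 1.51, with 29 above 0. In 3′RR-deficient cells it was 2.02, with 30 above 0. The median of the members lay above that of all tested genes in each genotype, where the latter were -0.08, -0.01 and -0.09. Ratios over 2-fold were seen in 26, 24 and 25 members. With TMM scaling, Ctps2 and Impdh1 were below 0 in every genotype, joined by Mthfd2l and Mtr in Eμ-deficient and by Mthfd2l in 3′RR-deficient cells.

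The ratios of the spike-in RNAs are given beside those of the members, with the caveat that the mixture added to each library is not given in the sources used here. For the 35 spike-ins that reached 100 counts in all libraries, the SD of their log2 ratios was 0.784 in wt, 0.135 in Eμ-deficient and 0.633 in 3′RR-deficient pairs. Counting alone would give 0.0646 to 0.0733. Here and below, spike-in ratios are scaled to the summed counts of these spike-ins and member ratios to TMM library sizes. The zero points thus differ, and whether a member lies inside the spike-in range depends on both scalings. Members above the highest spike-in ratio numbered 14 in wt, 29 in Eμ-deficient and 23 in 3′RR-deficient cells. The ratio of Psat1 was 3.51 (95% interval 3.27 to 3.77) in wt, where the highest spike-in was 1.70. The ratio of Ctps2 was -1.30 (95% interval -1.50 to -1.10) in wt, -1.12 (95% interval -1.41 to -0.84) in Eμ-deficient and -1.47 (95% interval -1.77 to -1.18) in 3′RR-deficient cells. In each genotype that is below the lowest spike-in ratio, which was -1.26, -0.24 and -1.37. In wt and 3′RR-deficient cells, however, the interval of Ctps2 includes that lowest ratio.

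The 3′RR-deficient pair gave the highest of the 3 ratios for 19 members, the wt pair for 10 and the Eμ-deficient pair for 4. Asns had a ratio of 2.34 (95% interval 2.01 to 2.69) in wt, 1.94 (95% interval 1.65 to 2.24) in Eμ-deficient and 4.57 (95% interval 3.89 to 5.33) in 3′RR-deficient cells. The last of these was the highest ratio of any tested member in any genotype and rests on 19 resting counts against 195. Cad had 0.78 (95% interval 0.67 to 0.89) in wt, 1.84 (95% interval 1.67 to 2.00) in Eμ-deficient and 2.43 (95% interval 2.31 to 2.54) in 3′RR-deficient cells. Umps had the most similar ratios of the 33, at 1.69, 1.69 and 1.79. With the trend of each library on transcript GC content removed, the median ratios of the members were 1.69, 1.35 and 1.79, and the ratios of Cad were 1.31, 1.69 and 2.17. The difference in LPS response between genotypes was not tested, since an interaction would leave no residual.

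The second comparison sets each deficient genotype against wt over both states. The comparisons of Eμ-deficient and 3′RR-deficient cells share the wt libraries. For 3′RR-deficient against wt, edgeR's quasi-likelihood test called 0 of 33 members at an adjusted p at or under 0.05 (Benjamini-Hochberg), where 0.678% of all tested genes were called. At an unadjusted p under 0.05 there were 0 members, where 831 of the 14600 tested genes were, and DESeq2 called 0. The lowest adjusted p of edgeR's quasi-likelihood test with Benjamini-Hochberg adjustment among the members was 0.914. The median log2 fold change was 0.09 over the members and 0.04 over all tested genes. The fitted values ran from -0.91 for Asns to 0.51 for Aprt. The members' median depended on the library left out. It was 0.24 without the 3′RR-deficient resting, 0.19 without the wt resting and -0.002 without the 3′RR-deficient LPS library.

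For Eμ-deficient against wt, edgeR's quasi-likelihood test with Benjamini-Hochberg adjustment called 0 of 33 members, where 1.16% of all tested genes were called. At an unadjusted p under 0.05 there was 1 member, Ahcy, where 1267 of the 14600 tested genes were, and DESeq2 called 0. Ahcy had a log2 fold change of -1.01 (SE 0.37), an unadjusted p of 0.0237 and an adjusted p of 0.394 in edgeR's quasi-likelihood test with Benjamini-Hochberg adjustment. The fitted values were below 0 for 29 members and above 0 for 4, and between 29 and 32 were below 0 over the other scalings. This split depended on the libraries and genes used. Below 0 were 27 with the GC trend removed, 25, with 6 above, where 10 counts were needed in every library, and 22 without the wt LPS or the Eμ-deficient LPS library. The median was -0.24, against -0.01 over all tested genes, and was -0.11 against -0.03 without the Eμ-deficient LPS library. With spike-in scaling it was -0.59 against -0.36, so that all genes shifted with the members. The highest fitted value was that of Asns, at 0.87 (SE 0.52). In each state the Eμ-deficient library also held the highest summed levels of the erythroid, myeloid and plasma cell lists, given further on. Their part in the split was not tested.

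Leaving out single libraries gave calls for a few members. Without the wt LPS library, Ahcy was called in Eμ-deficient against wt at -1.53 (adjusted p 0.00213) and Cad at -0.99 (adjusted p 0.0314) by edgeR's quasi-likelihood test with Benjamini-Hochberg adjustment. In that fit 8.58% of all tested genes were called. Without the wt resting library, Cad was called in 3′RR-deficient against wt at 1.14 (adjusted p 0.0268) and Shmt2 at 0.98 (adjusted p 0.0345) by edgeR's quasi-likelihood test with Benjamini-Hochberg adjustment, where 10.7% of all tested genes were called. The 2 members called were thus no larger a share than that of all genes in either fit. Without the 3′RR-deficient LPS library, Asns was called in 3′RR-deficient against wt at -2.46 (adjusted p 0.0460) by edgeR's quasi-likelihood test with Benjamini-Hochberg adjustment, where 0.832% of all tested genes were called. In the fits with other scalings, filters or libraries, the adjusted p of edgeR's quasi-likelihood test with Benjamini-Hochberg adjustment ranged from 0.0602 to 1 for Ahcy and from 0.655 to 1 for Cad in Eμ-deficient cells. In 3′RR-deficient cells that adjusted p ranged from 0.555 to 1 for Cad, from 0.652 to 1 for Shmt2 and from 0.344 to 1 for Asns, again by edgeR's quasi-likelihood test with Benjamini-Hochberg adjustment. The sign of Cad also depended on the library left out, since its log2 fold change in 3′RR-deficient against wt cells was -0.24 without the wt LPS library.

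Within a state each genotype has 1 library, so that ratios to wt are descriptions of those libraries. At rest, the Eμ-deficient to wt ratio had a median of -0.12 over the members, with 13 above and 20 below 0, and spike-ins had an SD of 0.477. This pair had a trend on GC content, with a median over all genes of 0.47 in the tenth of lowest and -0.44 in the tenth of highest GC content. With it removed, the members' median was -0.03, with 16 above and 17 below 0. The uneven split at rest was thus not kept. With LPS, the median was -0.27, with 6 above and 27 below 0, and the spike-in SD was 0.440. With the GC trend removed it was -0.34, with 5 above and 28 below 0. Ahcy was at -1.29 (95% interval -1.58 to -1.02) at rest and -0.65 (95% interval -0.80 to -0.50) with LPS, below 0 in both states. At rest 4 members, Ahcy, Cad, Shmt2 and Phgdh, lay below the lowest spike-in ratio of -0.63, and with LPS Mthfd2l, with 18 against 61 counts, lay below the lowest, -0.77. With the GC trend removed, the resting ratio went from -1.29 to -0.99 for Ahcy, from -0.84 to -0.37 for Cad, from -0.79 to -0.29 for Shmt2 and from -0.69 to -0.26 for Phgdh. The spike-in ratios have no such removal, so that these values are not set against their range. Asns was at 1.03 (95% interval 0.63 to 1.45) at rest and 0.63 (95% interval 0.44 to 0.83) with LPS, which is within the spike-in range of each pair.

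The resting 3′RR-deficient to wt ratio had a median of 0.00, with 17 members above and 16 below 0, and the narrowest spike-in SD of the within-state pairs, 0.157. Below the lowest spike-in ratio, -0.24, lay 5 members, Asns, Ahcy, Cad, Mthfd1 and Mthfd1l. Above the highest, 0.34, lay 7, which were Nme1, Aprt, Prps2, Mthfd2l, Psph, Psat1 and Nme2. Mthfd2l, Psph and Nme2 had intervals that include 0 and, in at least 1 of the 2 libraries, fewer counts than were asked of spike-ins, so that passing the range says little for them. Asns too had fewer counts than that. Asns was the lowest member at -2.36 (95% interval -3.16 to -1.63), from 19 against 86 counts, and the next was Ahcy, at -0.53 (95% interval -0.73 to -0.33). With LPS, Asns was at -0.13 (95% interval -0.37 to 0.11), an interval that includes 0. Neither the counting intervals nor the spike-ins measure how mice differ.

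With LPS, the 3′RR-deficient to wt ratio had a median of 0.31 over the members, with 21 above and 12 below 0. The spike-ins of this pair spread most, with an SD of 1.27 and a range from -2.60 to 2.17, and every member lay inside that range. The ratios ran with the GC content of the transcripts. Over the 11 members of lowest GC content (39.0% to 47.3%) the median was -0.30, over the middle 11 it was 0.35, and over the 11 of highest GC content (52.4% to 58.7%) it was 0.73. Over all genes with a GC value, the median was -0.88 in the tenth of lowest and 0.79 in the tenth of highest GC content. With that trend removed, the members' medians by GC content were 0.11, 0.14 and 0.05, and their overall median was 0.11.

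Single members moved with this removal. Cad was at 1.27 (95% interval 1.18 to 1.36) and, with the trend removed, at 0.57. Gmps, the member of lowest GC content, went from -0.86 to 0.10. Hprt, the next, went from -0.75 (95% interval -0.88 to -0.62) to 0.11. Aprt went from 0.64 (95% interval 0.48 to 0.79) to -0.12. In all, 8 members changed sign, these 3 and Psph, Prps1, Prps2, Dhodh and Ctps2, and the intervals of Prps1 and Ctps2 had included 0. The 2 members with the highest ratios after Cad came closer to 0 without changing sign. Shmt2 went from 1.02 (95% interval 0.93 to 1.11) to 0.30. Ahcy went from 0.99 (95% interval 0.88 to 1.10) to 0.55. Paics stayed below 0, from -0.51 (95% interval -0.62 to -0.40) to -0.37.

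**Figure D4:**
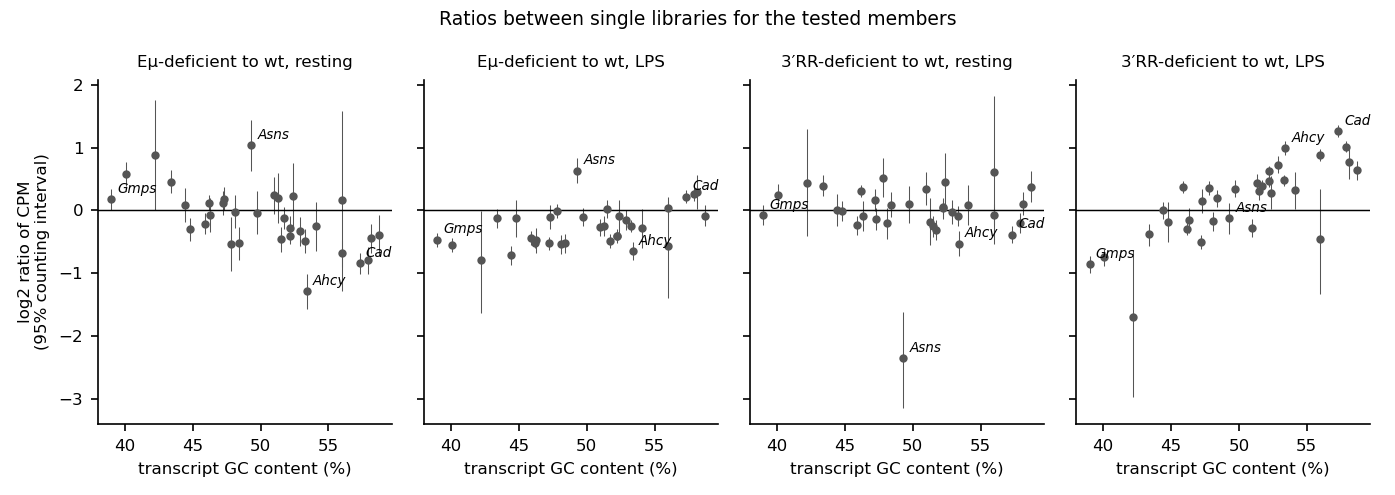
Log2 ratio of CPM between the deficient and the wt library of a state for each of the 33 tested members, with its 95% counting interval, against the GC content of its transcript in %. In the 3′RR-deficient to wt pair with LPS the ratios climb with GC content, and in the resting pair Asns lies apart at -2.36.

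Other genes of these pathways were taken from lists. Of 27 further one-carbon genes 19 were tested, of which 9 were called higher and 1 lower with LPS, beside 19.7% and 21.1% of all tested genes. The most abundant per kb was Dld, and Mat1a, Sds and Dmgdh had 0 counts in all libraries. Aldh1l2, the mitochondrial formyltetrahydrofolate dehydrogenase, had 0.0550, 0 and 0 CPM at rest and 0.526, 1.31 and 1.69 CPM with LPS. Gcsh, the carrier protein of glycine cleavage, had 4.62, 4.24 and 4.37 CPM at rest and 24.2, 16.6 and 27.8 CPM with LPS. Aldh1l2, called higher, was at or near 0 at rest in all genotypes, and Gcsh was several times higher in each LPS library. Cth, which makes cysteine from cystathionine and was called higher, had 0.055, 0.303 and 0.146 CPM at rest and 2.15, 5.995 and 2.47 CPM with LPS. Cth and Aldh1l2 passed the filter on counts only through LPS libraries, which set the direction of their calls in advance. The log2 fold change by edgeR's quasi-likelihood test with Benjamini-Hochberg adjustment was 2.35 (SE 0.27, adjusted p 0.000305) for Gcsh. Sfxn1, a mitochondrial serine carrier, had 1.90 (SE 0.24, adjusted p 0.000440) and Slc19a1, the folate carrier, 1.70 (SE 0.33, adjusted p 0.00384) in edgeR's quasi-likelihood test with Benjamini-Hochberg adjustment. Mtrr, Fpgs, Slc25a32 and Dld were the others called higher, and Gnmt, the glycine methyltransferase, was the 1 called lower, at -1.33 (SE 0.45, adjusted p 0.0397) by edgeR's quasi-likelihood test with Benjamini-Hochberg adjustment.

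Of 39 further nucleotide genes 32 were tested, of which 15 were called higher and 5 lower with LPS, where 19.7% of all tested genes were called higher and 21.1% lower. Cda had 0 counts in all libraries. The 5 called lower were Gda, Xdh, Ampd3, Nt5e and Uckl1. Gda, the guanine deaminase, had 8.20, 53.3 and 9.09 CPM at rest and 0.239, 0.937 and 0.337 CPM with LPS. By edgeR's quasi-likelihood test with Benjamini-Hochberg adjustment, the log2 fold change was -5.35 (SE 0.37, adjusted p 6.65e-05) for Gda, -2.82 (SE 0.53, adjusted p 0.00311) for Xdh and -2.52 (SE 0.31, adjusted p 0.000437) for Ampd3. Gda was also called higher in Eμ-deficient than in wt cells at a log2 fold change of 2.50 (adjusted p 0.0222) by edgeR's quasi-likelihood test with Benjamini-Hochberg adjustment, the 1 gene of this list called between genotypes. In both states Gda was lowest in wt and highest in Eμ-deficient libraries, as were the erythroid and myeloid sums given further on. Whether other cells had a part in this call was not tested. Among those called higher, Itpa had 2.14 (SE 0.26, adjusted p 0.000372) and Uck2, a uridine and cytidine kinase, 1.97 (SE 0.27, adjusted p 0.000679) in edgeR's quasi-likelihood test with Benjamini-Hochberg adjustment. Ak4, also called higher, passed the filter on counts only through LPS libraries, which set the direction of its call in advance.

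Of 14 deoxynucleotide genes, which were all tested, 10 were called higher and 1 lower with LPS (19.7% and 21.1% of all tested genes), with a median log2 fold change of 2.26. The most abundant per kb was Dctpp1. Tyms, which makes thymidylate with a folate-bound carbon, had 5.12, 7.79 and 4.96 CPM at rest and 91.3, 75.8 and 67.3 CPM with LPS. Rrm2, the small subunit of ribonucleotide reductase, had 5.89, 19.2 and 10.8 CPM at rest and 212, 177 and 194 CPM with LPS. The states were far apart in these genes. The log2 fold change in edgeR's quasi-likelihood test with Benjamini-Hochberg adjustment was 3.73 (SE 0.27, adjusted p 6.65e-05) for Tyms and 4.17 (SE 0.40, adjusted p 0.000141) for Rrm2. The 1 called lower was the mitochondrial thymidine kinase Tk2, at -2.31 (SE 0.25, adjusted p 0.000219) by edgeR's quasi-likelihood test with Benjamini-Hochberg adjustment.

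Genes related to the transcription factor ATF4, which drives the amino acid stress response, were split. Of 10, 9 were tested, 5 were called higher and 1 lower with LPS, against 19.7% and 21.1% of all tested genes, and Atf4 itself was the most abundant per kb. Atf4 had 252, 196 and 230.4 CPM at rest and 159.6, 145 and 192 CPM with LPS and Ddit3 had 45.3, 57.0 and 67.1 CPM at rest and 4.59, 9.18 and 8.65 CPM with LPS. In edgeR's quasi-likelihood test with Benjamini-Hochberg adjustment, the log2 fold change was -0.45 (SE 0.24, adjusted p 0.165) for Atf4, which was not called, and -2.96 (SE 0.25, adjusted p 9.63e-05) for Ddit3, which fell. Those called higher were Atf5, Trib3, Chac1, Aldh18a1 and Pycr1. Of these, Chac1 passed the filter on counts only through LPS libraries, which set the direction of its call in advance.

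Markers of proliferation and of other cells moved beside the members, and their part in the results was not tested. The 7 proliferation genes (Mki67, Top2a, Pcna, Mcm5, Ccnb1, Cdk1 and Birc5) were all called higher with LPS, with a median log2 fold change of 3.28. Their summed level was 202, 357 and 301 CPM at rest and 1873, 1699.9 and 1953 CPM with LPS, and Pcna was the most abundant per kb. The Eμ-deficient library was the highest at rest, whereas the summed level of the 34 members was lowest there. Of 7 B-cell genes 0 were called higher and 2 lower with LPS, Cd22 and Blk. The background for this and the other marker lists is 19.7% of all tested genes called higher and 21.1% lower.

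Of 7 erythroid genes all were called lower with LPS, and their summed level was 3376, 20380 and 3906 CPM at rest and 52.9, 672 and 134 CPM with LPS. Hbb-bs was the most abundant per kb, and Slc4a1 had 0 counts in the wt LPS library. All 7 were also called higher in Eμ-deficient than in wt cells, Hbb-bs at a log2 fold change of 3.27 (adjusted p 0.00890) by edgeR's quasi-likelihood test with Benjamini-Hochberg adjustment. In that comparison 1.16% of all tested genes were called in either direction. Of the 12 myeloid names 10 were tested and all of these were called lower with LPS, at a summed level of 176, 453 and 188 CPM at rest and 21.4, 36.9 and 28.9 CPM with LPS. Lyz2 was the most abundant per kb and Ly6g had 0 counts in all libraries. The Eμ-deficient resting library thus held the highest level of both lists.

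Of 7 T-cell genes 6 were called lower with LPS, at a summed level of 17.5, 37.0 and 24.5 CPM at rest and 0.813, 5.62 and 1.80 CPM with LPS, with Cd4 the most abundant per kb and Cd3e, Cd8a and Thy1 at 0 in the wt LPS library. Of the 4 NK genes 3 were tested and 2 called lower, at a summed level of 4.13, 4.46 and 6.22 CPM at rest and 0, 2.15 and 0.225 CPM with LPS, with Gzma the most abundant per kb and all 4 at 0 in the wt LPS library. Of the 7 plasma cell names 6 were tested and 2, Prdm1 and Xbp1, were called higher with LPS, where 19.7% of all tested genes were. The summed level was 546, 2234 and 591 CPM at rest and 581, 1589 and 891 CPM with LPS, with none at 0 in all libraries, and Jchain was the most abundant per kb. Jchain, with 113, 1734 and 171 CPM at rest and 96.1, 803 and 200.2 CPM with LPS, was called higher in Eμ-deficient than in wt cells at a log2 fold change of 3.55 (adjusted p 0.00748) by edgeR's quasi-likelihood test with Benjamini-Hochberg adjustment. Irf4 and Xbp1 of this list are also expressed in B cells. Whether these markers had a part in the low fitted values of Eμ-deficient cells was not tested.

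**Figure D5:**
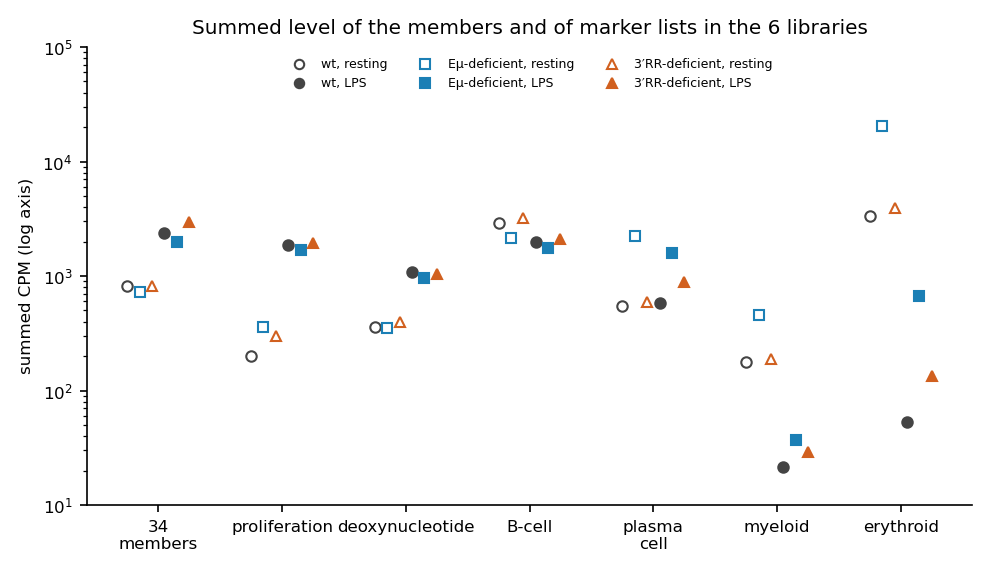
Summed CPM, on a log axis, of the 34 members and of marker lists in each of the 6 libraries, with open points for resting and filled points for LPS libraries. The members and the proliferation and deoxynucleotide lists are higher in each LPS library, and the myeloid and erythroid lists are lower.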

How the data were processed

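The authors mapped paired reads of 150 nt to mm10 with STAR 2.4.0a and deposited raw counts per gene name from featureCounts (Subread 1.4.6-p1, Ensembl release 77 models), strand-specific, primary alignments, multi-mapping reads included, so that genes with processed pseudogenes can exchange reads. Here, 92 spike-in RNAs, 4.75% to 7.10% of counts, were left out of library sizes. Of 47055 names, 44203 matched GENCODE M21 (GRCm38) directly and 790 through an older name, all 34 members directly. Coordinates, exon lengths and GC content come from it.

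Genes reaching 10 counts in 2 or more libraries were fitted with edgeR 4.0.16 (R 4.3.3), genotype and state as additive terms, TMM library sizes, Benjamini-Hochberg adjustment over all tested genes. The fit was tested on simulated data. Intervals of library ratios are from scipy 1.17.1.

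The members and lists were chosen with earlier results of these data known. All 34 members are named, with values in every library for those called and for isozyme pairs. Genes of the other lists are named where called or as defining examples, and some of them are not reported here.

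Alternatives were scaling by total counts, DESeq2 size factors, spike-in RNAs or TMM without immunoglobulin genes, other filters, DESeq2 1.42.0, GC trends removed by loess (span 0.3), no genotype block, only the genotypes compared, and libraries or genotypes left out. TMM without abundant non-coding and mitochondrial RNA was chosen after seeing the data.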

Additional observations from a re-analysis of the deposited data

Results flagged for a closer look

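For some members the log2 ratio of a deficient to the wt library lay on opposite sides of 0 in the resting and the LPS pair, with both counting intervals clear of 0. In 4 such cases the ratios lay on the same side with the GC trend removed, and these are not described further. They are Gmps and Impdh1 in Eμ-deficient and Prps2 and Hprt in 3′RR-deficient libraries. Those below were selected for keeping opposite sides, several with ratios close to 0. For each, the LPS ratio minus the resting ratio is given, followed in parentheses by the same difference with the GC trend removed. The differences were not tested.

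In the Eμ-deficient libraries, Shmt2 was at -0.79 at rest and 0.26 with LPS, a difference of 1.05 (0.34). Cad was at -0.84 at rest and 0.22 with LPS, a difference of 1.06 (0.38). With the GC trend removed, their LPS ratios were 0.04 and 0.01, about equal to wt. Mthfd2l, Mat2a and Hprt were above wt at rest and below it with LPS. Their differences were -1.67 (-1.20) for Mthfd2l, -0.64 (-0.50) for Mat2a and -1.13 (-0.51) for Hprt.

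In the 3′RR-deficient libraries, Cad was at -0.39 at rest and 1.27 with LPS, a difference of 1.65 (0.86). Ahcy was at -0.53 at rest and 0.99 with LPS, a difference of 1.52 (1.01). The difference was 1.21 (0.39) for Shmt2, 0.69 (0.35) for Mthfd1, 0.56 (0.25) for Mthfd1l and 0.61 (0.93) for Atic. Removing the trend thus made it smaller for most of these and larger for Atic. Mat2a and Nme1 were above wt at rest and below it with LPS, with differences of -0.60 (-0.33) and -0.62 (-0.89). The wt libraries are shared by both sets of ratios, so that Cad, Shmt2 and Mat2a do not appear in them independently.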

How the results depend on the processing

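For LPS against resting, members called higher numbered from 22 (spike-in scaling) to 29 (GC trend removed) over the alternatives, and 1 was called lower in each. The members' median log2 fold change ran from 1.50 to 1.93. Total counts lost Dhodh, at least 10 counts in every library left Nme2 untested and lost Dhodh, and DESeq2 lost Nme2. With spike-in scaling, 1454 genes were called higher and 2900 lower, 33.4% of calls higher against 48.4%. Without a filter on low counts the median of all genes moved by 0.227. Members with all LPS libraries above all resting libraries numbered 26 with spike-in scaling and 29 with the other scalings, and those with all below 2 with the GC trend removed and 1 otherwise. The share of all tested genes above was 16.5% with spike-in scaling and 22.1% to 25.7% otherwise. The share below was 33.2% with the GC trend removed and 24.7% to 29.4% otherwise.

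With single libraries left out, members called numbered 0 to 2 for 3′RR-deficient against wt, and the 2 calls came where 10.7% of all tested genes were called. For Eμ-deficient against wt they also numbered 0 to 2, the 2 calls where 8.58% were. The other alternatives called 0 members with edgeR's quasi-likelihood test or DESeq2, where up to 2 members had an unadjusted p under 0.05. For 3′RR-deficient against wt, 10 members were below 0, between 6 and 16 over the other scalings, and 17 without the 3′RR-deficient LPS library. Their median, 0.09 (all genes 0.04), was 0.01 (all genes -0.04) with total counts, 0.23 (all genes 0.16) with spike-in scaling, 0.03 (all genes 0.17) without a filter and 0.13 (all genes 0.03) with 10 counts in every library. With spike-in scaling all genes thus shifted with the members, and without a filter the members lay below all genes. The median was 0.03 (all genes 0.00) with only the genotypes compared, 0.24 (all genes 0.04) without the 3′RR-deficient resting library, 0.19 (all genes 0.07) without the wt resting library and 0.03 (all genes 0.01) without the Eμ-deficient LPS library. Without the 3′RR-deficient LPS library it was 0.00 (all genes 0.02).

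With a library left out, its partner is fitted exactly and the spread rests on the other genotypes. Low counts limit Mthfd2l and Nme2. Mthfd2l had its fewest, 8 counts, in the 3′RR-deficient LPS library, which had the lowest depth, 9111974 counts. Nme2 had 17 counts there and fewer in the deeper resting wt and Eμ-deficient libraries, 11 and 9. Asns had 19 counts in the resting 3′RR-deficient library.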
